A study of Rattus norvegicus with 24 samples.

Results

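Messenger RNA of the supraoptic nucleus (SON) was set against that of the rostral ventrolateral medulla (RVLM) within the spontaneously hypertensive rat (SHR), an inbred strain that develops high blood pressure. The comparison used 9 of the 24 arrays of the series, 4 titled SHR SON and 5 titled SHR RVLM, chosen by their titles alone. Each array carried RNA pooled from 5 male rats aged 10 to 13 weeks, so that n counts pools and the spread between arrays is a spread between pools. The labels name no treatment, transgene or surgery for either group. Every animal in the comparison was SHR, so no difference given here concerns the strain. The labels do not say whether the same rats gave both structures, and the borders of the dissections are not stated in the sources used here. The other 15 arrays, of the RVLM of Wistar-Kyoto rats and of the paraventricular nucleus and neurointermediate lobe of SHR, were left out of the tests.

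The SON is a compact nucleus at the base of the hypothalamus, beside the optic chiasm. Its magnocellular neurons make vasopressin or oxytocin, pack the hormones into large dense-core vesicles and send axons to the posterior pituitary, where the hormones enter the blood. The RVLM is a loosely bounded field of the brainstem. It holds adrenaline-making C1 neurons and other glutamate neurons that drive sympathetic outflow to the heart and blood vessels, among reticular interneurons, passing fibre tracts and, close by, motor neurons of the nucleus ambiguus. The comparison therefore asks which genes separate a neuroendocrine nucleus of the forebrain from a premotor autonomic field of the hindbrain in the same strain.

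The arrays carry no sequence of their own here, so the stretches just upstream of the start of 5 genes on which the comparison turns are shown: 3 of SON hormones and peptides, 1 of the peptide gene with the largest lower value in the SON, and 1 of the dopamine-synthesis gene that differed in the SON's favour. They are RefSeq sequences of the build GRCr8, 250 bases each, on the strand of the gene, and end just before the annotated start. Avp lies at chr3:138248523-138248772 (minus strand), Oxt at chr3:138235504-138235753 (plus strand), Pdyn at chr3:137366504-137366753 (minus strand), Calca at chr1:178317530-178317779 (minus strand) and Th at chr1:207508219-207508468 (minus strand). Capitals mark matches, searched on both strands, to an E-box (CACGTG), an AP-1 site (TGANTCA), a cAMP response element (TGACGTCA), an extended nuclear receptor half-site (TGACCTTGA) and a TATA box (TATAAA).
Avp: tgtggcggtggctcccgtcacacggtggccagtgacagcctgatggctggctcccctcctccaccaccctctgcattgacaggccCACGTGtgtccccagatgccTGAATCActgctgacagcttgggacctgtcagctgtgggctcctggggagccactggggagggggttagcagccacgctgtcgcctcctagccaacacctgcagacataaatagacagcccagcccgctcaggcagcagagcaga
Oxt: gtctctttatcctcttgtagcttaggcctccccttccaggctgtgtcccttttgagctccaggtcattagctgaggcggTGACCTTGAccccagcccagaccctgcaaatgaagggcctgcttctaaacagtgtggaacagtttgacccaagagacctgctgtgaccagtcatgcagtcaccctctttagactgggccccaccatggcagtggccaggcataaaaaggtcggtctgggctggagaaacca
Pdyn: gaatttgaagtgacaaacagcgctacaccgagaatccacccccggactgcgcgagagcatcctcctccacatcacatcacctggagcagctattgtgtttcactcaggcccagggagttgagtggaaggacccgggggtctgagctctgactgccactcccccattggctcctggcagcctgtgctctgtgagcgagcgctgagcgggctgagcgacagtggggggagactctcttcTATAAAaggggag
Calca: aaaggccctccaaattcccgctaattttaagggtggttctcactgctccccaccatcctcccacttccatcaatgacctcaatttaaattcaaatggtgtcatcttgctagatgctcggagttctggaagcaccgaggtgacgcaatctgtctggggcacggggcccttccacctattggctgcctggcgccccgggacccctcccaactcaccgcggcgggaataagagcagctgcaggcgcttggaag
Th: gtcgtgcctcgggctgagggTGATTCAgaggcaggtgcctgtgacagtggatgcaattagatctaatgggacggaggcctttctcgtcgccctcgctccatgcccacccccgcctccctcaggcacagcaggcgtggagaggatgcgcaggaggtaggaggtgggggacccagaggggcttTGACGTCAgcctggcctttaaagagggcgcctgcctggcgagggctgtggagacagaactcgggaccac
In the Avp stretch the E-box lay at -165 to -160 and the AP-1 match at -145 to -139 from the start. In Oxt the half-site lay at -171 to -163, in Pdyn the TATA match at -13 to -8, and in Th an AP-1 match at -230 to -224 and the cAMP response element at -69 to -62. No match lay in the Calca stretch. The starts of Avp and Oxt were 12768 bases apart, on opposite strands. Among 11733 such stretches of genes on the array, 7.82% held the E-box, 4.84% the AP-1 match, 2.64% the cAMP response element, 0.188% the half-site and 8.06% the TATA match. The E-box share was 5.77% among 710 stretches of genes higher in the SON by at least 1 on the log2 scale and 6.46% among 697 of genes lower by as much. Shares in the same order were 6.76% and 4.02% for the AP-1 match, 1.97% and 2.73% for the cAMP response element, 0.282% and 0.287% for the half-site, and 10.7% and 6.60% for the TATA match. A match is a description of letters and not a tested site.

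Over the whole array the structures differed widely. Expression values are the deposited linear intensities. A difference is the mean log2 intensity in the SON minus that in the RVLM after each array was brought to a common median, so 1 on this scale is 2-fold, and a gene was called at a limma adjusted p under 0.05. Of 14217 named genes 5639 were called (39.7%), 3057 higher in the SON (21.5%) and 2582 lower (18.2%). With a size of at least 1 these were 1784 genes (12.5%), 922 higher (6.49%) and 862 lower (6.06%). The median over all genes was 0.07. Values as deposited moved it to 0.15 and quantile normalization to 0.11, and with values as deposited 62.5% of the called genes were higher in the SON in place of 54.2%. Over probe sets 10791 of 31042 were called (34.8%), 5131 higher (16.5%) and 5660 lower (18.2%). With a size of at least 1 the probe sets were 4146 (13.4%), 1716 higher (5.53%) and 2430 lower (7.83%). More probe sets were called higher than lower on unshifted deposited intensities (6373 against 5037) and after quantile normalization (5799 against 5451). In 37.6% of all genes the arrays of the structures did not overlap, which is the background for every statement on overlap below. At an unadjusted p under 0.05, used below beside counts of 0, 48.4% of all genes passed. Counts of members of gene lists are read against these shares, and the lists overlap in some genes.

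**Figure D1:**
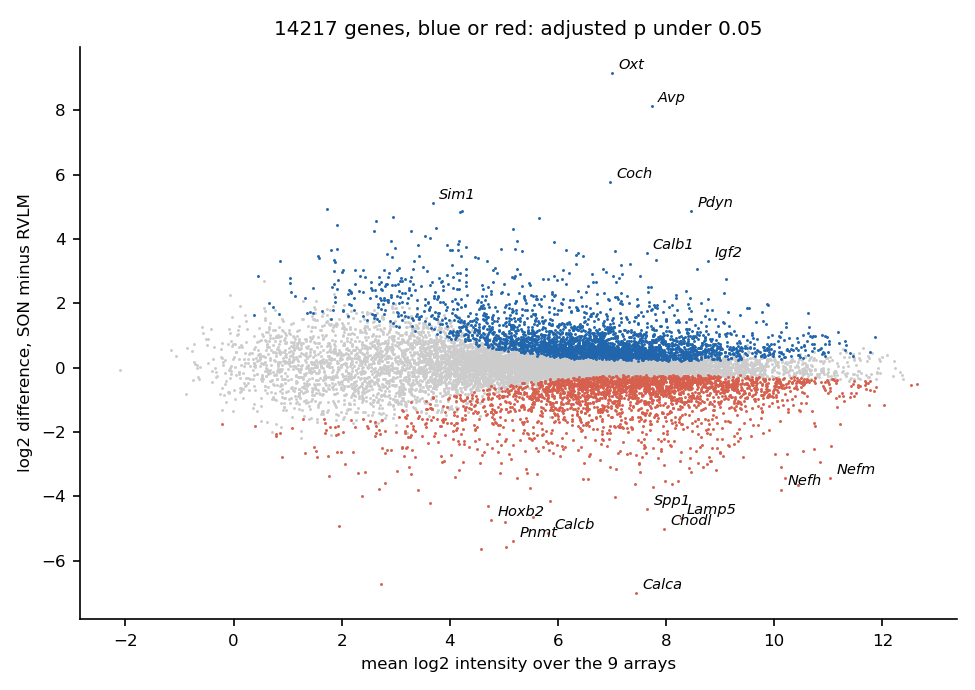
Log2 difference (SON minus RVLM) against the mean log2 intensity over the 9 arrays, with 1 point for each of the 14217 named genes, blue where called higher and red where called lower in the SON. Oxt (9.16) and Avp (8.13) stand at the top and Calca (−7.00) at the bottom.

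Array medians lay between 37.8 and 42.9, and an intensity below that range is called dim here because it says little about the size of a difference. Rank correlations of an array with the others of its structure were 0.956 to 0.970, and with those of the other structure 0.900 to 0.917. RVLM array 2 had the lowest value within its structure (0.956), and its summed intensity of ribosomal protein genes was 31659, against 48594 to 59063 on the other RVLM arrays. The ratio of 3′ to 5′ actin control probe sets, a sign of RNA quality, was 2.58 to 2.60 on SON arrays 1 to 3, 3.86 on SON array 4 and 2.18 to 3.30 on the RVLM arrays (exact permutation test, two-sided, p = 0.698). For GAPDH the ratio was 1.21 to 1.32 and 1.13 to 1.34 (the same exact test, p = 0.889).

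The hormone genes of magnocellular neurons separated the structures most. Avp, which encodes vasopressin, the antidiuretic and vasoconstrictor hormone, had intensities of 5609.9, 4592, 4688 and 5335 on SON arrays 1 to 4 and of 13.5, 14.7, 22, 19.2 and 16.9 on RVLM arrays 1 to 5. The SON values lay near the top of each array, with 3 to 14 probe sets above, and the RVLM values lay below the array medians. The difference was 8.13 (SE 0.15, adjusted p = 1.73e-12). Oxt, which encodes oxytocin, the hormone of milk ejection and labour, had 4795, 4183, 4252 and 4822 in the SON and 10.3, 13.6, 3.76, 13.3 and 3.24 in the RVLM. Its dim RVLM values spread over a wide range, so the difference of 9.16 (SE 0.36, adjusted p = 9.00e-10) is loosely determined, and with a pseudocount of 16 it was 7.47, against 7.20 for Avp. Pdyn, the precursor of dynorphin that vasopressin neurons release together with the hormone, had 2581, 2019, 2551 and 2438 in the SON and 57.5, 72.4, 99.7, 95 and 66.9 in the RVLM. The difference was 4.88 (SE 0.16, adjusted p = 2.19e-10). For all 3 genes every SON array lay above every RVLM array.

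**Figure D2:**
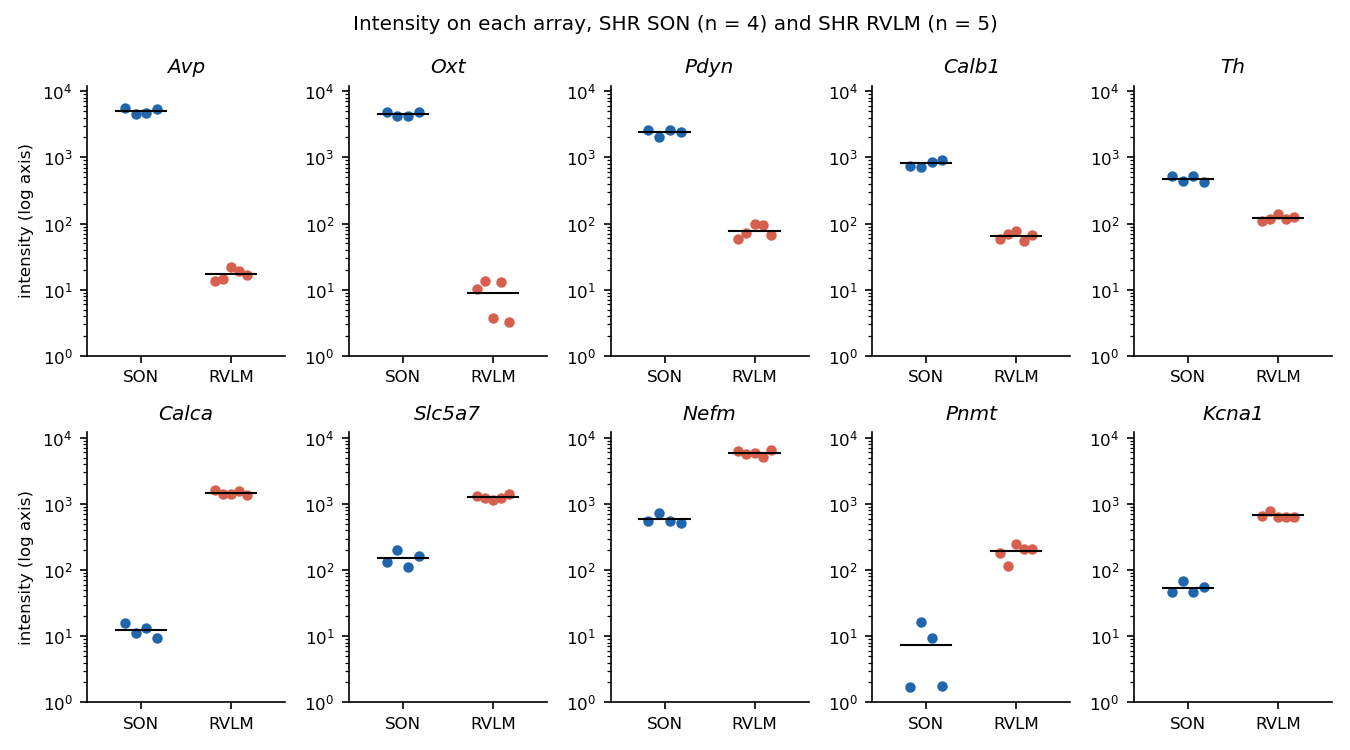
Deposited intensity (log axis) of 10 genes on each array, with SHR SON in blue (n = 4) and SHR RVLM in red (n = 5), and a bar at the mean of the group. The upper 5 genes were higher and the lower 5 lower on every SON array than on any RVLM array.

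Of 16 listed genes of magnocellular hormones and co-expressed peptides, 8 were called higher and 4 lower in the SON. Cartpt, the precursor of the CART peptides, had 2060.3, 1846, 2137 and 2254 in the SON and 506, 365, 640.2, 562 and 509 in the RVLM (difference 1.95, adjusted p = 5.47e-07). Galanin (Gal), a peptide that restrains hormone release, had 846 ± 77.3 in the SON and 392 ± 84.4 in the RVLM, a difference of 1.05 (adjusted p = 2.37e-04). Cck, the cholecystokinin precursor found in oxytocin neurons, differed by 1.12 (247 against 109.9), and the thyrotropin-releasing hormone gene Trh by 1.17 (64 against 31.2, adjusted p = 0.0427). The call of Trh ended without RVLM array 3 or 5 or without any 1 SON array (adjusted p 0.0547 to 0.12). Prok2 was called as well, but its values were dim in both structures (24.3 against 0.754). Against the hormones, the enkephalin precursor Penk was lower in the SON, with 204, 338, 229 and 216 there and 1329.6, 1502, 1939, 1583 and 1548 in the RVLM (difference −2.78, adjusted p = 1.75e-08). Lower too were neuromedin B (Nmb, −1.74, 74.9 against 242), apelin (Apln, −1.09, 68.5 against 138) and secretogranin II (Scg2, −0.90, 735 against 1300.3). Vgf (−0.28, adjusted p = 0.062), Adm (−0.093), Nmu (−0.075) and the nitric oxide synthase gene Nos1 (0.44, 21 against 15.9) did not pass the test, and the last 3 were dim in both structures. Without SON array 2 Vgf was called lower (adjusted p = 0.0355).

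Genes that process prohormones and load dense-core vesicles did not move as a group. Of 23 measured, 8 were higher and 5 lower in the SON, with a median of −0.11 (−0.0057 without SON array 3). Cadps2, a priming factor of dense-core vesicle release, had 572, 528, 612 and 597 in the SON and 67, 78.2, 60.1, 36.8 and 59.8 in the RVLM (difference 3.22, adjusted p = 5.41e-09). The amidating enzyme gene Pam, whose product finishes vasopressin and oxytocin, differed by 1.98 (2075 ± 257 in the SON and 497 ± 25.2 in the RVLM). Ptprn and Ptprn2, membrane proteins of the vesicle, differed by 1.52 (888 against 293) and 1.12 (536 against 236), and the synaptotagmin gene Syt5 by 2.61 (90.4 against 16.3). In the other direction the secretogranin Scg3 was lower by 1.16 on the log2 scale, at 865 ± 83.5 in the SON and 1826 ± 93.5 in the RVLM, and chromogranin A (Chga) by 0.73 (369 against 582). Cadps, the close relative of Cadps2, was also lower in the SON, at −0.59 (982 against 1399). The 2 priming factor genes thus had opposite signs, each with no overlap between the structures, but as the mean of its probe sets Cadps differed by −0.12 and was not called, and Pam by 0.98 (adjusted p = 0.0643).

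Transcription factors that mark brain regions were compared in 3 lists. Of 18 measured factors and regulators of hypothalamic neurons, 7 were higher and 3 lower in the SON. The median was 0.51, but 0.13 without SON array 4 and 0.039 with a pseudocount of 16. Of the 18, 10 were dim in the SON and 12 in the RVLM. Sim1, without which magnocellular neurons do not form, had 74, 87.1, 106 and 120.0 in the SON and 0.693, 5.48, 8.03, 4.75 and 0.831 in the RVLM, a difference of 5.11 (SE 0.68) whose size rests on dim RVLM values. Its partner Arnt2 differed by 0.95 (559.9 ± 60.4 in the SON and 275 ± 34 in the RVLM). Caprin2, an RNA-binding protein that acts on the vasopressin transcript, had 1468, 1700.3, 1748 and 1683 in the SON and 241, 229, 188, 258 and 247 in the RVLM (difference 2.75, adjusted p = 6.26e-10). Rasd1, a small G protein that responds to osmotic stimuli in the SON, differed by 2.31 (293 against 56.1), Giot1 by 1.46 (54.5 against 19.8), Nkx2-1, a patterning factor of the ventral hypothalamus, by 1.06 (50.5 against 23.2) and Creb3l1, an activator of the Avp promoter, by 0.86 (60.1 against 32.2). Lower in the SON were Zfp189 (−0.71, 59.7 against 92.5), Nkx2-2 (−1.13, 31.6 against 66) and Isl1 (−1.12, 18.5 against 38.7).

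Of 17 forebrain factors 6 were higher, 2 were lower and 9 did not pass, with a median of −0.024. Without SON array 2, 3 were lower, and 1 without any other array but RVLM array 2. Summed intensities of this list were 798 to 1046 on the SON arrays and 1017 to 1219 on the RVLM arrays. Meis2, given below, weighs most in the RVLM sums, so the sums do not describe the list as a whole. Foxp2 had 146, 188, 206 and 179 in the SON and 2.76, 21.5, 20.2, 10.9 and 12.5 in the RVLM (difference 3.94, adjusted p = 2.14e-05), Lhx2 differed by 1.81 (83.4 against 22.7) and Dlx1 by 2.10 (54.4 against 11.9). Meis2 ran against its list, with 82.8 ± 21.8 in the SON and 619.6 ± 49.7 in the RVLM and a difference of −3.01 (adjusted p = 2.79e-09).

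Of 26 hindbrain factors 0 were higher in the SON by limma (1 at an unadjusted p under 0.05), 15 were lower (background 18.2%), all by at least 1, and the median was −1.38. Hox genes, which give the hindbrain its position along the body axis, led them. Hoxb2 had 7.19, 2.67, 1.51 and 14.9 in the SON and 121, 93.3, 115, 123 and 122 in the RVLM (difference −4.73, adjusted p = 7.93e-06). Hoxb4 followed with −4.21 (2.76 against 55.9), Hoxd3 with −2.96 (10.4 against 75.9) and Hoxc4 with −2.51 (19.4 against 102). The Hox cofactor gene Meis1 was lower by 1.91 on the log2 scale (53.9 ± 15.2 in the SON and 187 ± 10.8 in the RVLM), and Irx3, an Iroquois factor, by 2.18 (21.2 against 90.2). The SON values of 24 of the 26 hindbrain genes were dim, as were the RVLM values of 14. Phox2a, a factor of noradrenaline and adrenaline neurons, was dim in both structures (21.6 against 21) and did not pass the test.

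**Figure D3:**
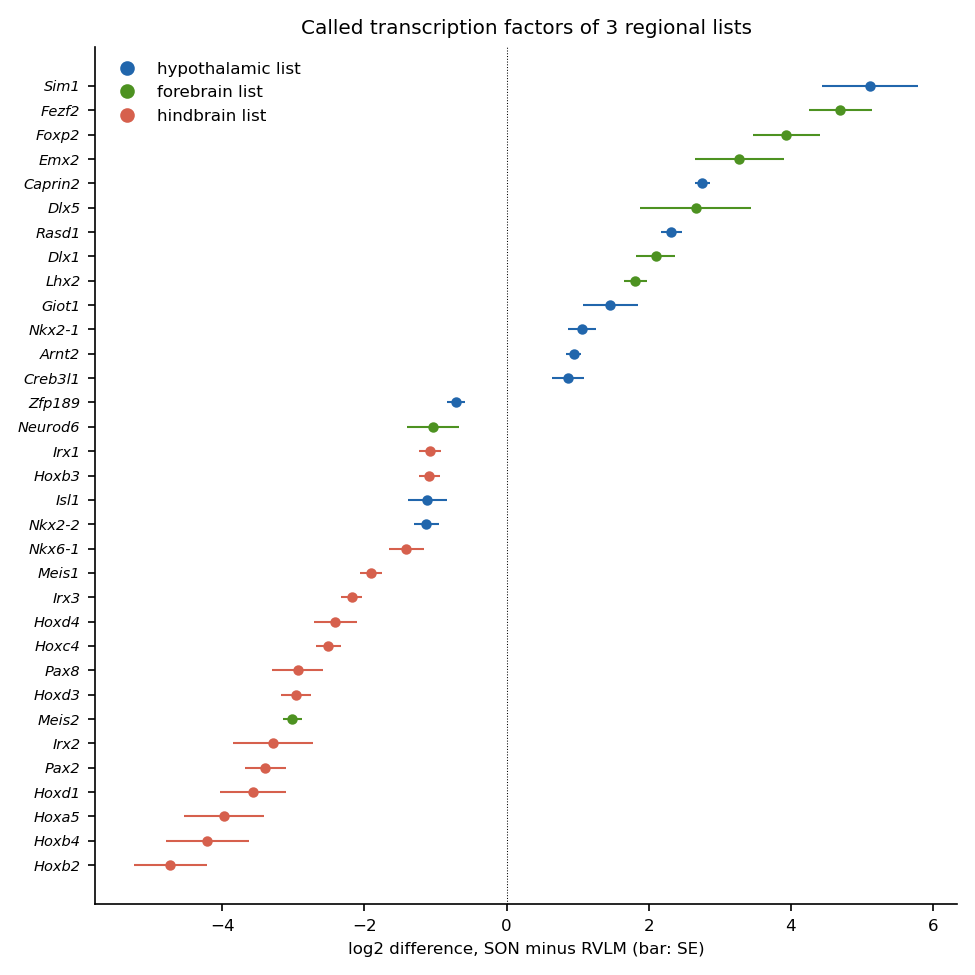
Log2 difference (SON minus RVLM, bars show SE) of every called member of the hypothalamic (blue), forebrain (green) and hindbrain (red) lists of transcription factors and regulators. Each of the 15 called hindbrain genes lies below 0, while 7 of 10 called hypothalamic and 6 of 8 called forebrain genes lie above it.

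Enzymes of catecholamine synthesis split by step. Th, the rate-limiting enzyme of the pathway, was higher in the SON, with 524, 433, 524 and 425 there and 109, 116, 140.1, 118 and 126 in the RVLM (difference 1.89, adjusted p = 4.05e-08). Pnmt, which turns noradrenaline into adrenaline and marks the C1 neurons of the RVLM, had 1.72, 16.5, 9.56 and 1.77 in the SON and 179.6, 113, 251, 207 and 208 in the RVLM. The difference was −5.39 (SE 0.58, adjusted p = 8.36e-06). Dbh, which makes noradrenaline, had 16.9, 16.6, 22.2 and 15.2 in the SON and 27.5, 49.6, 41.6, 39.2 and 32.7 in the RVLM (difference −1.17, adjusted p = 0.00147), near or below the array medians in both. Every SON array lay above every RVLM array for Th, and below for Pnmt and Dbh. The vesicular monoamine transporter Slc18a2 was lower in the SON (−1.29, 45.5 against 105), as was Qdpr, which regenerates the cofactor of tyrosine hydroxylase (−1.73, 912 ± 110.3 in the SON and 2865 ± 345 in the RVLM). Ddc, which makes dopamine from L-DOPA, differed by −0.51 (65 against 88.1). Of the oxidases that break down monoamines, Maoa was lower (−0.95, 223 against 408) and Maob higher (0.75, 664 against 375). Gch1 (−0.43), Pts (0.24) and the transporters Slc6a2 (0.74) and Slc6a3 (−0.10) did not pass, so of 12 genes 2 were higher and 6 lower. These arrays do not tell fewer cells of a type from less RNA per cell, here or in the results that follow.

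Serotonin neuron genes were dim. The serotonin transporter Slc6a4 had 11.7, 3.77, 23.9 and 3.75 in the SON and 39.8, 37.2, 52.6, 26.6 and 41.5 in the RVLM (difference −2.36, adjusted p = 0.0022). Its arrays did not overlap between structures, although most values lay near or below the array medians. Of 7 measured, 3 were lower, and 5 with genes as means over probe sets. The others that were lower were the receptors Htr1a (−1.80, 5.58 against 17.1) and Htr5b (−1.72, 12.2 against 27.3). The call of Htr5b ended without SON array 2 or any of RVLM arrays 1 to 4, with limma adjusted p between 0.0514 and 0.0678. Fev (−0.54), Gata2 (−0.41), and Htr1b (−0.12) did not pass, nor did Gata3 (0.22), whose mean over probe sets was −1.45 (adjusted p = 0.0074). Without SON array 1 Gata2 was called (adjusted p = 0.0443).

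Cholinergic and motor neuron genes were the group in which single genes fell farthest in the SON. Calca, whose transcripts encode calcitonin and the calcitonin gene-related peptide of motor and sensory neurons, had 15.8, 11.1, 13.2 and 9.31 in the SON and 1648, 1404, 1427, 1557 and 1341 in the RVLM. The difference was −7.00 (SE 0.14, adjusted p = 2.25e-12). Its relative Calcb had 4.75, 10.7, 5.65 and 14.4 and 318, 172, 241, 299 and 345 (difference −5.14, adjusted p = 3.81e-08). Chodl, a membrane lectin of fast motor neurons, had 45.2, 33.5, 32.3 and 39.1 in the SON and 1359, 961, 849, 1131 and 1491 in the RVLM (difference −5.01, adjusted p = 2.26e-10). None of these overlapped between structures, and the SON values of Calca and Calcb were dim. The genes that make acetylcholine a transmitter were lower together. The choline transporter Slc5a7 had 135, 200.4, 111 and 162 in the SON and 1302, 1212, 1137, 1232 and 1421 in the RVLM (difference −3.16, adjusted p = 3.63e-09). The vesicular transporter Slc18a3 differed by −3.45 (28 ± 12.7 in the SON and 267 ± 33.3 in the RVLM) and the synthesising enzyme Chat by −2.51 (76.6 ± 9.78 in the SON and 414 ± 69.4 in the RVLM). Ret (−0.80, 229.8 against 382) and Gfra1 (−1.01, 74.7 against 143), which form a receptor for glial cell line-derived neurotrophic factor, were lower as well. Of 25 genes 12 were lower, 0 were higher by limma (also 0 at an unadjusted p under 0.05), and the median was −0.80. Muscarinic receptors and most nicotinic subunits were among those that did not pass.

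Neurofilaments and the axonal cytoskeleton followed. Nefm, the medium neurofilament subunit, had 546, 728, 549.5 and 519.6 in the SON and 6264, 5776, 5837, 5187 and 6549 in the RVLM (difference −3.43, adjusted p = 9.00e-10). Nefl, the light subunit, had 320.3, 392, 327 and 391 and 4439.6, 4277, 3705, 3672 and 4882 (difference −3.63, adjusted p = 2.19e-10), and Nefh, the heavy subunit of large-calibre axons, 248, 326, 244 and 265 and 3507, 3375, 2737, 3561 and 4621 (difference −3.79, adjusted p = 8.93e-10). The RVLM intensity was 10.7-fold, 12.4-fold and 13.8-fold that of the SON for the 3 subunits. Peripherin (Prph) differed by −2.99 (141 ± 13.2 in the SON and 1060.5 ± 97.5 in the RVLM), and the axonal motor genes Kif5c and Kif1a by −3.52 (68.3 against 749) and −3.46 (27.1 against 261). Of 27 genes 21 were lower and 2 higher, with a median of −0.96. The higher genes were the microtubule-binding gene Mapt (0.49, 1204 against 816) and Ank1, which is dim (0.71, 31.5 against 18.6), and 1 of these was higher without RVLM array 4 or 5 or SON array 1, 2 or 3. Dendritic Map2 differed by −0.41 (1997 against 2516), a call that ended without SON array 4 (adjusted p = 0.0503). Beside these, 13 of 18 pan-neuronal markers were lower in the SON and 2 higher, with a median of −0.64 and summed intensities of 14897 to 16130 on the SON arrays and 25882 to 29945 on the RVLM arrays. Rbfox3, the gene of the NeuN antigen, differed by −3.08 (40.2 ± 10.1 in the SON and 317 ± 37.8 in the RVLM) and Snap25 by −1.14 (2283 against 4788), whereas Celf4 (0.39, 775 against 562) and Elavl4 (0.32, 389 against 294) were higher. Celf4 lost its call without SON array 2 (adjusted p = 0.0636), and Elavl4 without SON array 2, SON array 4 or RVLM array 1 (adjusted p between 0.0512 and 0.0722). The part of overall neuronal content in the lists of neuronal genes was not tested.

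Of 33 synaptic vesicle genes 14 were lower in the SON and 3 higher, with a median of −0.36. Vamp1, the vesicle SNARE of fast motor and brainstem synapses, had 310.4, 361, 249 and 391 in the SON and 3361, 3129, 3077, 3260.0 and 3839 in the RVLM (difference −3.44, adjusted p = 9.10e-10). The complexin Cplx1, which clamps fusion, differed by −2.59 (574 ± 128 in the SON and 3215 ± 263 in the RVLM) and Sv2b by −2.19 (296 against 1278). Vamp2, the SNARE of most forebrain synapses, was higher (0.59, 187 against 119), with Syn2 (0.71, 458 against 263) and Syngr3 (0.64, 884 against 536). The 2 vesicle SNARE genes thus had opposite signs. Taken as the mean of its probe sets, Syn2 differed by 0.08 and was not called.

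Ion channels differed subunit by subunit. Kcna1, a low-threshold potassium channel of axons, had 46, 68.9, 46.6 and 56.1 in the SON and 668, 774, 634, 640.2 and 628 in the RVLM (difference −3.71, adjusted p = 1.24e-10). Its partner Kcna2 differed by −2.45 (158 ± 13.1 in the SON and 817 ± 26.8 in the RVLM), the auxiliary subunit Kcnab1 by −3.10 (107 ± 6.63 in the SON and 873 ± 35.2 in the RVLM), the modifier Kcns3 by −2.95 (29.4 against 217), and the ATP-sensitive Kcnj11 by −1.71 (49.5 against 155). Higher in the SON were Kcnh1 of the ether-à-go-go family (1.85, 129 against 34.3), Kcnd3, which carries A-type current (1.41, 357 against 128), and Kcnmb4, the neuronal subunit of the large-conductance calcium-activated channel (1.32, 634 ± 42.8 in the SON and 241 ± 31.9 in the RVLM). In all 8 of 45 potassium channel genes were higher and 16 lower.

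Among 35 sodium, calcium, HCN and TRP channel genes 12 were higher and 7 lower. Scn4b, the subunit behind resurgent sodium current, had 95.7, 73.8, 84.8 and 65.5 in the SON and 863, 819, 833, 885 and 882 in the RVLM (difference −3.51, adjusted p = 1.83e-10). Scn1a, a sodium channel of fast-spiking neurons, differed by −2.77 (163 ± 43.8 in the SON and 1025 ± 82.3 in the RVLM), while Scn2a was higher (1.05, 276 against 126). The calcium channel subunits Cacna2d3 and Cacna2d1 had opposite signs, −2.40 (81.6 against 394) and 1.72 (375 against 107). Cacna1b, the N-type channel that triggers release, was higher (1.29, 195 against 75.4).

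Calcium-binding proteins, which label neuron classes, split evenly, with 6 of 20 higher and 6 lower. Calb1, calbindin, a marker of magnocellular oxytocin neurons, had 752, 722, 860.3 and 927 in the SON and 59.4, 70.7, 75.9, 54.8 and 66.2 in the RVLM (difference 3.56, adjusted p = 1.70e-10). Calb2, calretinin, differed by 1.78 (945 ± 60.2 in the SON and 262 ± 38.4 in the RVLM). Pvalb, parvalbumin, ran the other way (−2.74, 25.9 ± 11.8 in the SON and 153 ± 36.2 in the RVLM), as did Sncg, gamma-synuclein (−3.07, 355 ± 28.6 in the SON and 2843 ± 437 in the RVLM).

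Genes of GABA and glycine transmission differed in both directions. Slc32a1, the vesicular transporter of both transmitters, had 133, 187, 106 and 107 in the SON and 346, 331, 353, 400.4 and 273 in the RVLM (difference −1.46, adjusted p = 9.14e-06). Gad1, which makes GABA, differed by −0.51 (612 ± 216 in the SON and 795 ± 65.7 in the RVLM), overlapping values whose call ended without RVLM array 3, RVLM array 5 or any SON array but array 2 (adjusted p between 0.0566 and 0.115), and also after quantile normalization (0.121). The glial glycine transporter Slc6a9 was lower as well (−0.71, 338 against 517). The neuronal glycine transporter Slc6a5 was dim (2.88 against 4.89) and did not pass. Of 13 genes 6 were lower, 3 without RVLM array 5 and 4 or 5 without any other array, and 1 was higher: Slc6a13, a GABA transporter of the meninges (3.62, 182 against 13.4). Glrb, the shared subunit of glycine receptors, had 258, 318, 232 and 249.7 in the SON and 975, 901, 839, 901 and 940.5 in the RVLM (difference −1.87, adjusted p = 1.23e-08), but as the mean of its probe sets it differed by −0.79 (adjusted p = 0.102). Of 17 GABA receptor genes 4 were higher, among them Gabrb2 (0.82, 650.4 against 347) and Gabrb1 (0.47, 491 against 335), and 6 lower, among them Gabbr2 (−0.89, 257 against 452) and Gabrg1 (−0.82, 59 against 96.9). The mean over the probe sets of Gabrb2 had the other sign (−0.52, adjusted p = 0.307), and with such means 1 receptor gene was higher in place of 4.

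The vesicular glutamate transporter of hypothalamus and brainstem, Slc17a6, did not pass the test: it had 576, 670.2, 677 and 686 in the SON and 659, 732, 785, 646 and 673 in the RVLM, overlapping values with a difference of −0.18 (SE 0.092, adjusted p = 0.159). Of 15 AMPA and kainate receptor genes 3 were higher and 4 lower. Gria4, a fast AMPA subunit, differed by −1.82 (44.1 against 143), Gria3 by −1.06 (224 against 441), and Cnih2, which slows AMPA receptors, by 1.28 (226 against 87.6). Of 18 NMDA and metabotropic receptor genes 3 were higher and 7 lower, such as Grm3 (−1.60, 63.8 against 181) and Grin3b (−1.46, 37 against 94.5, −0.26 and not called as the mean of its probe sets), while Grin1, the subunit that every NMDA receptor needs, did not pass (0.29, 245 against 191), except without RVLM array 4 or SON array 4 (adjusted p 0.0188 and 0.0207) and in several other settings.

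Of 19 genes of peptides found in medullary neurons 8 were lower in the SON and 7 higher, the latter including Pdyn, Cartpt and Gal. Somatostatin (Sst) had 115, 152, 102 and 89.4 in the SON and 465, 476, 555, 564 and 538 in the RVLM (difference −2.28, adjusted p = 6.26e-08). Substance P comes from Tac1 (−1.81, 51 against 165), gastrin-releasing peptide from Grp (−2.26, 17.2 against 79.7) and PACAP from Adcyap1 (−1.93, 43.5 against 155). Npy, made by many C1 neurons, did not pass (0.34, 446 ± 39.4 in the SON and 336 ± 48.8 in the RVLM), except without RVLM array 3 (adjusted p = 0.0498) and in several other settings. Of 14 genes of peptides of other hypothalamic and forebrain neurons 4 were higher and 3 lower in the SON. Of the 14, 11 were dim in the SON and 12 in the RVLM. Pmch of the lateral hypothalamus, above the array medians in the SON, differed by 0.81 (69.9 against 37.8). Hcrt had a difference of 0.45 (25.4 against 17.4) that did not pass, and Crh was lower in the SON (−1.54, 17.4 against 47.7).

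Of 42 receptors for peptides and amines 5 were higher and 13 lower, and 23 were dim in the SON. Htr2c, the serotonin 2C receptor, had 288, 507, 299.6 and 338 in the SON and 1567, 1419, 1363, 1378 and 1428 in the RVLM (difference −2.11, adjusted p = 9.60e-08). Tacr3, the neurokinin B receptor found on magnocellular neurons, had 59.2, 70.3, 87.5 and 60.4 and 4.3, 3.43, 3.18, 4.36 and 10.6 (difference 3.80, adjusted p = 4.70e-06), and the kappa opioid receptor Oprk1, at which dynorphin acts, differed by 0.90 (106 against 53.8). Of 17 steroid and metabolic hormone receptors 5 were higher (3 without SON array 3) and 4 lower. Prlr, the prolactin receptor, differed by 2.24 (139 ± 49.5 in the SON and 26.2 ± 3.01 in the RVLM) and the thyroid hormone receptor Thrb by −1.54 (125 ± 7.45 in the SON and 344 ± 31.3 in the RVLM), while Nr3c2, the mineralocorticoid receptor, differed by −0.67 (105 against 159.8).

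Of 13 renin-angiotensin genes 2 were higher and 2 lower. Angiotensinogen (Agt) did not pass (0.056, 2467 ± 291 in the SON and 2242 ± 210.4 in the RVLM), and the receptor Agtr1a was dim in both structures (22.4 against 14.7). Enpep, the aminopeptidase that makes angiotensin III, had 164, 83.9, 133 and 94 in the SON and 41.5, 29, 21.5, 16.1 and 20.8 in the RVLM (difference 2.15, adjusted p = 2.31e-05). Hsd11b1, which regenerates active glucocorticoid, was lower (−1.92, 61.8 ± 15.2 in the SON and 221 ± 51.3 in the RVLM). In nitric oxide and cGMP signalling 6 of 16 were higher and 2 lower. Higher were the cGMP-degrading enzymes Pde9a (2.75, 169 ± 14.2 in the SON and 29 ± 18.4 in the RVLM) and Pde2a (1.16, 302 against 128) and the guanylate cyclase subunit Gucy1a1 (0.79, 317 against 173). Nos1ap, an adaptor of the neuronal nitric oxide synthase, was lower (−2.01, 57.4 against 218).

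Myelin genes were lower in the SON almost without exception. Of 22 oligodendrocyte and myelin markers 21 were lower, all by at least 1, 0 were higher by limma (also 0 at an unadjusted p under 0.05) and Olig2, dim in both structures, did not pass. The median was −2.35, and the counts were again 21 and 0 with each array left out in turn. Ugt8, which makes the myelin lipid galactocerebroside, had 56.6, 87.1, 75.8 and 66.8 in the SON and 779, 944, 732, 823 and 809 in the RVLM (difference −3.61, adjusted p = 1.70e-10). Mobp, a structural protein of central myelin, had 596, 834, 641 and 625 and 3423, 3684, 3794, 3459.8 and 3676 (difference −2.51, adjusted p = 5.46e-09), and Mog, on the outer face of the sheath, 156 ± 27.2 in the SON and 1086 ± 114 in the RVLM (−2.89). Mbp, a major protein of the sheath, had 2746 ± 63.7 in the SON and 5926 ± 997 in the RVLM and a smaller difference of −1.17. Klk6, a protease of oligodendrocytes, had 28.5, 64.1, 42.5 and 47.5 in the SON and 476, 408, 612, 545 and 534 in the RVLM (difference −3.62, adjusted p = 1.33e-08). The summed intensity of the list was 7678 to 8783 on the SON arrays and 27636 to 32882 on the RVLM arrays. Of 8 markers of oligodendrocyte precursors 4 were lower, among them Sox10 (−1.37, 52.7 against 131), and Pdgfra was higher (0.84, 377 against 191).

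Astrocyte markers were split. The intermediate filament gene Gfap had 4185, 3248, 3806 and 3838 in the SON and 2652, 2909, 3248, 3111 and 3566 in the RVLM, with a difference of 0.21 that did not pass (adjusted p = 0.349). The summed list was 27778 to 32057 against 30334 to 37424. Of 17 genes 2 were higher and 7 lower, with 4 lower without RVLM array 4 or 5 or SON array 2 or 4, and 5 higher with quantile normalization. Aldh1l1, a folate enzyme of astrocytes, was higher (1.14, 687 ± 62.3 in the SON and 295 ± 26.7 in the RVLM), while glutamine synthetase (Glul) was lower (−1.20, 1521 ± 358 in the SON and 3273 ± 394 in the RVLM). Vim, the filament of immature astrocytes, tanycytes and many mesenchymal cells, is not on this list. It had 1968, 1068, 1354 and 900.0 in the SON and 122, 139.8, 161, 135 and 167 in the RVLM (difference 3.06, adjusted p = 6.91e-08). SON array 1 was the highest and array 4 the lowest SON array for Vim, an order shared by most meningeal genes below. The part of each cell type in its difference was not tested.

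In a list of genes of the net around neurons and of other extracellular matrix, 8 of 15 were lower. In the same list 1 was higher (2 without RVLM array 3, SON array 1 or SON array 4). Spp1, osteopontin, had 42.8, 38.4, 31.9 and 41.4 in the SON and 853, 647, 668, 718 and 955 in the RVLM (difference −4.39, adjusted p = 1.72e-10). Hapln2, a link protein at nodes of myelinated axons, differed by −3.24 (54.7 ± 6.89 in the SON and 489 ± 68.4 in the RVLM) and Hapln4 by −1.87 (74.2 against 255, −0.03 and not called as the mean of its probe sets). Tnc, tenascin C, was the exception (2.56, 124 ± 9.82 in the SON and 20.2 ± 5.1 in the RVLM).

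Machinery of the secretory pathway stood higher in the SON. Of 43 genes of the endoplasmic reticulum and Golgi 33 were higher (background 21.5%), 0 were lower by limma (2 at an unadjusted p under 0.05) and 10 did not pass, with a median of 0.51. With any 1 array left out 26 to 32 were higher and 0 or 1 lower, and with arrayWeights 2 were lower. Tmed3, a cargo receptor between these compartments, had 768, 588, 761 and 659 in the SON and 139.7, 127, 165, 164 and 140.0 in the RVLM (difference 2.16, adjusted p = 2.11e-08). Sec61b, of the channel through which nascent hormones enter the reticulum, had 1491, 1698, 1880.1 and 2036 and 551, 307, 586, 596 and 532 (difference 1.74, adjusted p = 1.06e-05). Ssr4, part of the translocon-associated complex, differed by 1.86 (1564 ± 94.1 in the SON and 423 ± 115 in the RVLM), the growth factor and stress-response gene Manf by 1.21 (563 against 234) and Kdelr3, a retrieval receptor, by 1.66 (51.7 against 15.1). The summed intensity was 31303 to 33589 on the SON arrays and 18380 to 22138 on the RVLM arrays.

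Of 28 cytosolic ribosomal protein genes 18 were higher in the SON (background 21.5%), 0 lower by limma (also 0 at an unadjusted p under 0.05), and the median was 0.61. Rps3, of the small subunit, had 2917, 2764, 2697 and 3245 in the SON and 1506, 628, 1682, 1446 and 1945 in the RVLM (difference 1.02, adjusted p = 0.0111). The summed intensity was 73505 to 77033 in the SON, above every RVLM array, and RVLM array 2 was the lowest. With any 1 array left out 14 to 19 genes were higher and 0 lower. With all arrays 13 were higher without the eBayes intensity trend and 24 with quantile normalization. Without RVLM array 2 19 genes were higher and the median was 0.46. For the respiratory chain the same array mattered more. With all arrays 10 of 44 genes were lower and 0 higher by limma (1 at an unadjusted p under 0.05, and 6 with quantile normalization), with a median of −0.18. Without RVLM array 2 30 were lower (median −0.35), and with any other array left out 8 to 10. On RVLM array 2 the summed intensity of this list was 49172, against 69314 to 78361 on the other RVLM arrays and 60674 to 66346 on the SON arrays. Cox5a, a subunit of cytochrome oxidase, stood apart from its list, with 123, 143, 149.6 and 85.2 in the SON and 800.4, 655, 809, 885 and 886 in the RVLM (difference −2.79, adjusted p = 3.19e-08).

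**Figure D4:**
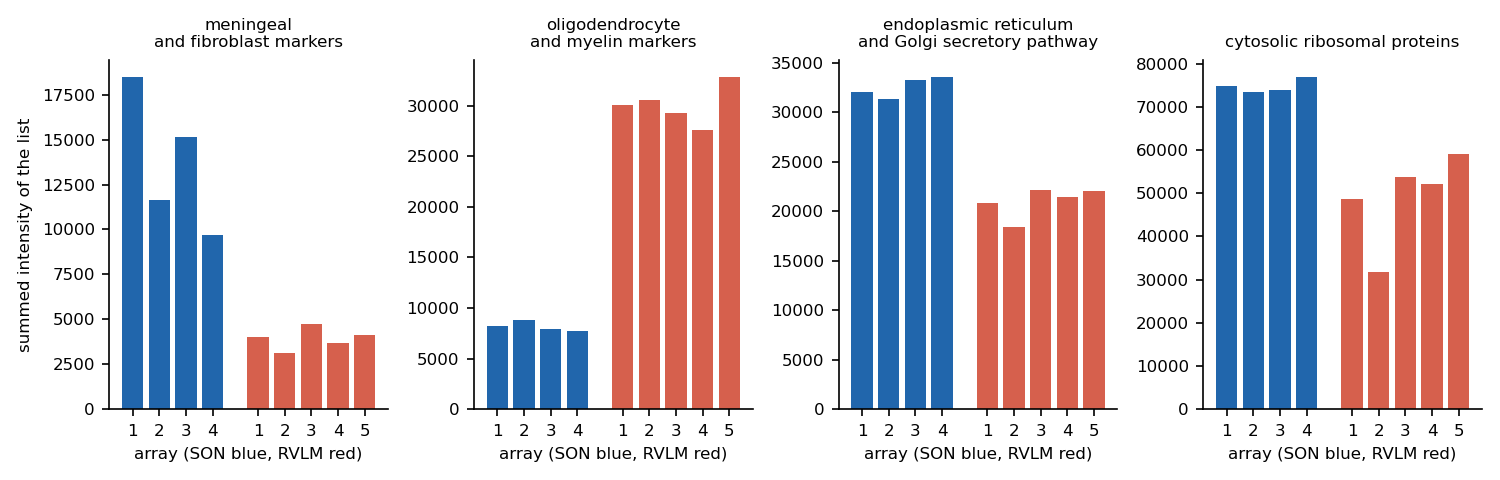
Summed deposited intensity of the measured genes of 4 lists on each array, with SON arrays 1 to 4 in blue and RVLM arrays 1 to 5 in red. The meningeal sums are higher on every SON array but uneven among them (9705 to 18510), the myelin sums are lower, and RVLM array 2 has the lowest ribosomal sum (31659).

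Meningeal and fibroblast genes had the highest median of the 42 lists, 2.36, with 16 of 18 higher in the SON and 0 lower by limma (also 0 at an unadjusted p under 0.05). Slc13a4, a sulfate transporter of the leptomeninges, had 577, 241, 351 and 184 in the SON and 4.48, 7.67, 38.5, 4.61 and 34.9 in the RVLM (difference 4.65, adjusted p = 7.50e-05), or 3.34 with a pseudocount of 16, the RVLM values being mostly dim. Col1a2, a chain of type I collagen, had 1046, 435, 763 and 274 and 42.3, 51.8, 52.3, 40.6 and 30.4 (difference 3.62, adjusted p = 8.52e-07). Igf2, the growth factor made by meninges and choroid plexus, had 2558, 1436, 1789 and 1084 and 167, 143, 163, 149 and 152 (difference 3.32, adjusted p = 2.47e-08), although another of its probe sets was called in the opposite direction and the mean of its probe sets differed by 0.76 (adjusted p = 0.108). Ogn (2.39, 885 ± 252 in the SON and 155 ± 4.56 in the RVLM), Lum (2.23, 396 against 77.2) and Ptgds (0.96, 5622 against 2746) followed. The SON arrays were uneven: the summed list was 18510, 11661, 15126 and 9705 on arrays 1 to 4, against 3145 to 4745 on the RVLM arrays. Array 1 was the highest and array 4 the lowest SON array in 13 of the 18 genes, compared with 11.4% of all genes and 25.4% of the genes higher in the SON by at least 1. With each array left out in turn 16 of the 18 were higher.

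Vessel wall and immune genes showed part of the same order. Of 12 pericyte and smooth muscle markers 6 were higher and 1 lower. Tagln, a smooth muscle actin-binding protein, had 397, 146, 285 and 88.3 in the SON and 12.2, 4.37, 11.3, 6.08 and 18.2 in the RVLM (difference 4.32, adjusted p = 9.86e-06), or 2.98 with a pseudocount of 16, the RVLM values being dim, and Myh11, smooth muscle myosin, 244, 147, 214 and 111 and 70.2, 34.5, 49, 43.6 and 41.6 (difference 1.80, adjusted p = 5.81e-05). Acta2 did not pass (0.15, 110.2 against 93.8). SON array 1 was highest and array 4 lowest in 7 of the 12. Among 20 microglia and macrophage markers 10 were higher and 1 lower, with the same order in 9. Cd74, the invariant chain of antigen presentation, differed by 2.24 (150.4 ± 34.3 in the SON and 30.8 ± 9.35 in the RVLM) and the macrophage mannose receptor Mrc1 by 0.97 (84.6 against 41), whereas P2ry12, the purine receptor of resident microglia, was lower (−0.82, 194 ± 19.8 in the SON and 325 ± 28.5 in the RVLM). Of the microglial genes 6 were higher without RVLM array 4 or SON array 1 or 3, and 7 to 9 without any other array, and 2 were lower without RVLM array 2 or 4. Endothelial markers were mixed, 3 of 18 higher and 5 lower. Vwf, the clotting factor of vessel walls, differed by 2.37 (227 ± 102 in the SON and 39 ± 3.55 in the RVLM), while the tight-junction gene Cldn5 did not pass (0.12, 582 against 504). Of 10 choroid plexus and ependyma markers 4 were higher and 0 lower by limma (also 0 at an unadjusted p under 0.05), with Rarres2 at 1.94 (499 against 121) and Ttr, transthyretin, at 1.20 (163 against 68.4). Hbb, a haemoglobin chain of red blood cells, differed by 0.80 (1078 against 599), a call that ended without SON array 2 (adjusted p = 0.0584). The part of attached meninges, vessels or blood in these differences was not tested.

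**Figure D5:**
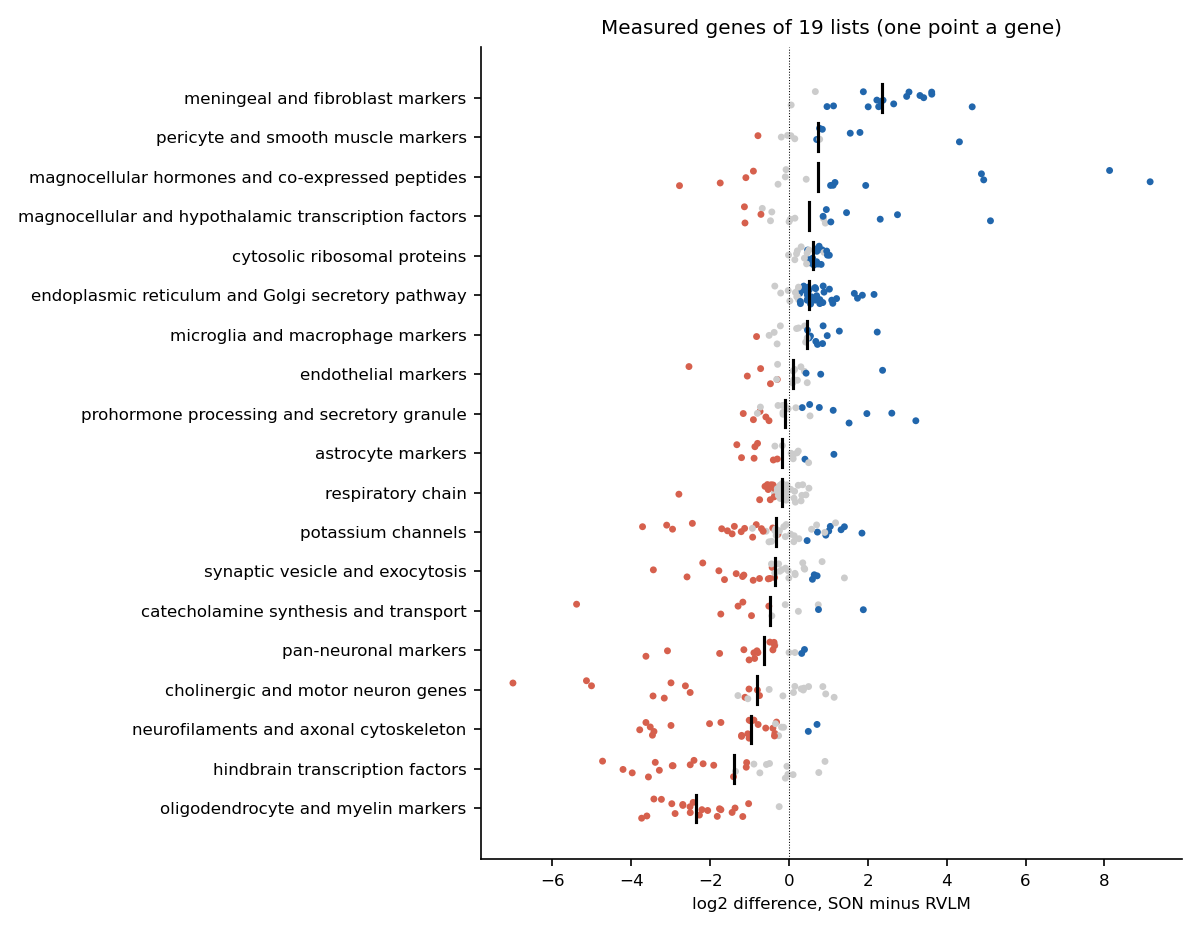
Log2 difference (SON minus RVLM) of each measured gene of 19 lists, blue where called higher, red where called lower and grey where not called, with a bar at the median of the list. Medians run from 2.36 for meningeal and fibroblast markers to −2.35 for oligodendrocyte and myelin markers.

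The 15 largest differences in each direction were taken among called genes without overlap whose brighter structure reached an intensity of 200. Those not yet described were as follows. Coch, cochlin, a secreted matrix protein, had 1748, 1103, 1465 and 718 in the SON and 27, 13.4, 39.3, 18.7 and 14 in the RVLM (difference 5.77, adjusted p = 1.55e-08). Crabp2, a cytoplasmic carrier of retinoic acid, had 397, 272, 304 and 189 and 17.9, 10.5, 17, 21.3 and 26.7 (difference 3.89, adjusted p = 1.73e-07). The interferon-induced membrane gene Ifitm1 had 398, 279.6, 309 and 234 and 25.2, 17.8, 14, 30.1 and 31.4 (difference 3.65, adjusted p = 1.02e-07), and Slc6a20a, a transporter of proline and related imino acids, 1224, 727, 939 and 591 and 71.1, 59.6, 108, 79.6 and 81.5 (difference 3.34, adjusted p = 6.74e-08). SON array 1 was the highest and array 4 the lowest SON array for each of these 4 genes. Most meningeal genes had this order, as did 25.4% of all genes higher in the SON by at least 1. The part of meninges in these 4 differences was not tested. Tp53i11 (3.56, 338 ± 46.9 in the SON and 27.3 ± 5.03 in the RVLM), Elapor1 (3.49, 352 ± 57.5 in the SON and 29.6 ± 4.14 in the RVLM) and Sned1 (3.49, 335 ± 125 in the SON and 28.3 ± 9.56 in the RVLM) were also among the largest.

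In the other direction Lamp5, a membrane protein of a subset of neurons, had 43.3, 58.9, 61.1 and 50.3 in the SON and 1229, 1097, 1558, 1277 and 1235 in the RVLM (difference −4.67, adjusted p = 7.17e-11). Crhbp, which binds and holds back corticotropin-releasing hormone, had 12.6, 15.4, 13.2 and 8.7 and 165, 203, 207, 228 and 213 (difference −4.13, adjusted p = 2.14e-09). Ahnak2, a very large scaffold protein, differed by −4.01 (29.2 ± 3.45 in the SON and 449.7 ± 71 in the RVLM). Lack of overlap was a condition for naming these 3 genes, so every SON array lay below every RVLM array by selection.

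Of 40 guidance molecules for axons, which stay expressed in the adult brain, 6 were higher and 13 lower in the SON. The share called was 47.5%, beside 39.7% of all genes. Sema3e had 78.6, 86.7, 75.3 and 80.0 in the SON and 459, 611, 588, 552 and 481 in the RVLM (difference −2.82, adjusted p = 2.75e-10), and the ephrin receptor Epha5 differed by −2.60 (16.1 against 93.2). Plxnc1, a semaphorin receptor, ran the other way (2.65, 387 ± 46.6 in the SON and 58.7 ± 11.1 in the RVLM), as did the netrin receptor Unc5c (1.20, 178 against 73) and the ephrin Efnb3 (1.31, 144 against 56).

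Few immediate early genes, which report recent activity, were called: of 18 measured, 1 was higher and 2 lower in the SON. Their summed intensity was 1509 to 1949 on the SON arrays and 2397 to 2681 on the RVLM arrays. Bright members such as Jund weigh most in that sum. Fos had 57.3, 208, 186 and 66.7 in the SON and 89.8, 114, 122, 136 and 148 in the RVLM, overlapping values with a difference of −0.20 (adjusted p = 0.693). Egr1 differed by −0.26 (89.9 against 102) and did not pass either. Jund was lower (−0.87, 984 ± 114 in the SON and 1699 ± 105 in the RVLM), though not as the mean of its probe sets (−0.48, adjusted p = 0.163), and Nr4a1 higher (0.73, 77.6 against 44.2).

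Arnt2, Creb3l1, Isl1, Meis1, Irx3, Phox2a, Ret, Gfra1, Prph, Ank1, Map2, Grin1, Tac1, Adcyap1, Npy, Hcrt, Crh, Mobp, Mog, Mbp, Gfap, Ogn, Lum, Ptgds, Cldn5, Fos and Egr1 fell outside the rule for named genes and were named after their values were seen, as members of the lists above.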

How the data were processed

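RNA of SHR SON and SHR RVLM was hybridised to 1-colour Affymetrix rat arrays, 1 array for each pool of 5 rats. Per the submitters' processing notes the values came from GCOS 1.2, and the deposited values are linear intensities. Their 2% trimmed mean was 100.022 to 100.032 on all 24 arrays, so the authors had scaled them. Parameters of that step are not stated in the sources used here, nor are detection calls. The number of arrays limits the precision, since a scanned intensity has no read depth.

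Control probe sets (57) were left out. The other 31042 were taken to log2 with no pseudocount, shifted to a common median and fitted over the 9 arrays with limma 3.58.1 in R 4.3.3 (eBayes with an intensity trend, Benjamini-Hochberg adjustment over all probe sets). A gene is the probe set with the highest mean log2 intensity among those annotated to it alone. GEO's platform annotation, which can be old, gave 20826 probe sets 1 gene, 436 several and 9780 none, and the last 2 kinds were not named. No value was 0, and the lowest was 0.00259. Labels do not say that pools of a group came from separate preparations, so p-values measure the spread between these arrays.

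Named genes are the 15 largest called rises and falls without overlap and with an intensity of at least 200 in the higher structure, a set of fixed markers, at most 5 called members of each list in each direction with at least 50, and members of lists of at most 16 genes. The members and lists were chosen with earlier results of these data known. Alternatives covered scaling, pseudocounts of 16 and 64, filters at the 40th and 60th percentile, the eBayes trend, arrayWeights, the replicate block, more arrays in the fit, the mean of the probe sets of a gene, and each array left out. The scripts were tested on simulated data.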

Additional observations from a re-analysis of the deposited data

Results flagged for a closer look

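Within the 4 SON and the 5 RVLM arrays, single arrays were compared with the others of their structure by Dixon's test at the 95% level. Of 470 groups of values, 34 held an array that stood apart (7.23%), and chance gives about 1 in 20 groups.

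RVLM array 2 accounted for 12 of them. It was highest of its structure for Gabbr1 (921), Gria4 (169), Kcna1 (774), Mapt (1053), and for the dim genes Prok2 (1.36) and Slc6a5 (14.1). It was lowest for the secretory pathway genes Sec61b (307) and Ssr4 (224), and for Hoxb2 (93.3), Nmb (148), Rarres2 (69.7) and Tp53i11 (18.5). Its part in the calls of these genes is given by the fit without it, in which no call named in the text changed other than that of Htr5b. The same array had the lowest sums of ribosomal and respiratory chain genes.

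SON array 4 had the highest ratio of 3′ to 5′ actin probe sets of its structure (3.86), the highest values of Rdh10 (73.7), Slc6a3 (59.2) and the dim Hoxd3 (14.4) and Hoxb4 (4.89), and the lowest of Grin1 (207). SON array 3 was highest for Map2 (2136), Npy (505), Rasd1 (360) and Kif5c (88.4). SON array 1 was highest for Agt (2903) and Adm (42.6) and lowest for Slc17a6 (576) and Prlr (65.2). SON array 2 was highest for Nefm (728) and Cacna2d3 (121) and lowest for Ttr (91.6).

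Of the other RVLM arrays, array 3 was highest for Giot1 (42.3), array 4 for Grp (122) and Rdh10 (58.2), and array 5 for Tacr3 (10.6) and for the summed astrocyte markers (37424).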

How the results depend on the processing

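Counts of called probe sets and genes stayed within 1.5 times the reported ones in every setting other than those given here, and sizes of at least 1 depended most on how dim probe sets were treated. Against 4146 probe sets called with a size of at least 1 (1716 higher and 2430 lower in the SON) and 1784 genes (922 and 862), a pseudocount of 16 left 1988 probe sets (754 and 1234) and 1035 genes (485 and 550), and one of 64 left 847 (304 and 543) and 517 (222 and 295). A filter at the 40th percentile of mean intensity left 2450 probe sets (887 and 1563) and 571 genes higher by at least 1. One at the 60th percentile left 1563 probe sets (508 and 1055) and 896 genes (369 and 527), with 7114 probe sets called at any size, 3335 of them higher, because fewer probe sets were tested.

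With single arrays left out, called probe sets ranged from 9323 to 11067 (higher 4216 to 5179, lower 5097 to 5888) and called genes from 4875 to 5885 (higher 2507 to 3021, lower 2310 to 2864). With a size of at least 1 the ranges were 3800 to 4150 probe sets (higher 1482 to 1752, lower 2278 to 2418) and 1636 to 1784 genes (higher 788 to 945, lower 810 to 874).

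Replicate numbers 1 to 4 occur in both structures, but deviations of same-numbered arrays did not go together (correlations −0.012, −0.018, −0.063 and −0.013), so the numbers were not taken as pairs. The replicate block was fitted on arrays 1 to 4 of each structure, so RVLM array 5 was left out. With it 4490 probe sets were higher and 4752 lower, and 2730 genes higher and 2148 lower. Without RVLM array 5 and with no block these were 4932 and 5167 probe sets, and 2976 and 2349 genes.

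Of 226 genes named, 45 crossed the threshold or changed sign in at least 1 setting. The sign changed for 3, each with the mean over a gene's probe sets: Gabrb2 (−0.52), Gata3 (−1.45) and Syt4 (−0.13). With such means Ank1, Arnt2, Cadps, Ddc, Gabbr1, Glrb, Grin3b, Hapln4, Igf2, Isl1, Jund, Kcnab2, Mapt, Nrp1, Oprk1, Pam, Slit2, Syn2 and Tubb3 kept their sign without a call. In the fit of all 19 SHR arrays, which pools the spread of more structures, Ank1, Crh, Dbh, Gad1, Hbb, Htr1a, Pmch, Ptgds, Ret, Sox10 and Trh were not called (adjusted p for Dbh 0.102, for Crh 0.0907, for Pmch 0.233), and Stra6 was. The cause was not tested. A dim value on 1 side limits the size of any large difference, among them those of Oxt, Avp, Sim1, Pnmt, Calca, Calcb, Slc13a4, Tagln and the Hox genes.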

Other observations

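A set of 14 genes of retinoid handling was gathered after their values had been seen and was not tested as a list. Of these 8 were called and 6 were not. Of all genes 39.7% were called, but a set gathered by its values cannot be read against that share. Rbp4, the blood carrier of retinol, had 585, 426, 460.2 and 281 in the SON and 62.5, 48.4, 69.5, 50.5 and 60.8 in the RVLM (difference 2.79, adjusted p = 1.14e-07). The retinoic acid-making enzymes Aldh1a2 and Aldh1a3 differed by 2.66 (307 against 45.3) and 2.70 (26.8 against 4.02, dim in both structures), and Aldh1a1, of the same family, was lower in the SON (−1.69, 167 ± 44.1 in the SON and 497 ± 55.1 in the RVLM). Cyp26b1, which breaks retinoic acid down, had 177, 105, 181 and 83.1 in the SON and 1092, 1153, 966, 1032 and 946 in the RVLM (difference −3.08, adjusted p = 6.17e-08). The carriers Crabp2 (3.89) and Crabp1 (0.87, 124 against 63.1) and the reductase Dhrs3 (1.01, 156 against 73.1) were higher in the SON, whereas Cyp26a1, Stra6, Rdh10 and the receptors Rara, Rarb and Rarg did not pass. Stra6, a retinol receptor, was called higher without SON array 2 (adjusted p = 0.0116). SON array 1 was the highest and array 4 the lowest SON array for Rbp4, Aldh1a2 and Crabp2. Dhrs3 had the same order, as did Aldh1a1, which was lower in the SON. It is the order of most meningeal genes, of 11.4% of all genes and of 25.4% of genes higher in the SON by at least 1. Aldh1a2 is itself on the meningeal list. The part of meninges in the retinoid differences was not tested.

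The RVLM arrays of Wistar-Kyoto rats (n = 5) took no part in the tests. On them Pnmt had a mean intensity of 178 ± 39.1, beside 192 ± 50.8 in the SHR RVLM, and Th 122 ± 18.8, beside 122 ± 11.8. Calca had 1185 ± 181, beside 1475 ± 125, Slc5a7 1257 ± 289.9, beside 1261 ± 107, and Kcna1 628 ± 48.6, beside 669 ± 60.9. Avp was dim there too, at 16.6 ± 7.82, beside 17.3 ± 3.45. The strains were not compared here.

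Where a gene has several probe sets, they can read different ends or forms of its transcript. Other probe sets of Gabbr1, Igf2, Kcnab2, Nrp1, Slit2, Syt4 and Tubb3, singled out after their values were seen, were called in the direction opposite to that of the probe set used for the gene.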
